A study of Sus scrofa with 12 samples.

Results

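DNA methylation in mammals is written by DNMT enzymes and removed by way of TET enzymes. DNMT1 copies methyl marks onto the new strand after replication, with UHRF1 bringing it to hemimethylated sites. DNMT3A and DNMT3B place marks on unmethylated DNA with the help of the catalytically inactive DNMT3L, and TET1, TET2 and TET3 oxidise 5-methylcytosine. DNMT3B, DNMT3L and TET1 are known for high levels in early embryonic and pluripotent cells, and DNMT1 is known to follow cell division. The genes described here were these 8 writers, erasers and cofactors, found by their pig gene symbols. Of the 8 genes, 7 were found among the 19681 Ensembl identifiers of each library (13998 of which had a symbol), and TET2 is not analysed here.

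The RNA sequencing libraries came from the porcine endothelial cell line AOC and from porcine induced pluripotent stem cells (piPSCs) under endothelial induction, with 3 biological replicates (A, B and C) in each of 4 groups. IEC2 cells had been kept on Matrigel and given the GSK3 inhibitor CHIR99021 for 2 days, IEC4 cells had then received BMP4, FGF2 and VEGF up to day 4, and IEC12 cells had then been grown in EGM-2 medium with VEGF up to day 12. AOC is an established line and did not pass through the induction, so cell source and stage cannot be told apart in any comparison with it. The IEC12 cells were the whole day 12 population, since the study names CD31-sorted day 12 cells as a group of their own, which is not analysed here. Whether the replicates were separate inductions is not given in the sources used here, and p-values measure only the spread between these libraries.

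The values are FPKM, fragments scaled by transcript length and by the library total. They were found to be whole fragments divided by those quantities, which gave 23608396 to 35225118 fragments per library. Replicates of a group had Pearson correlations of 0.968 to 0.993 over genes, with the lowest between IEC12 replicates A and C.

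The labelled cell types were first set against defining markers. Of 14 endothelial markers 11 were found, and their summed FPKM reached 298.3 to 423.5 in AOC against 3.44 to 5.97 in IEC2, 2.04 to 3.39 in IEC4, then 0.425 to 0.609 in IEC12. CDH5, the adhesion molecule of endothelial junctions, was at 103 to 137 FPKM in AOC and listed at 0 in all 9 IEC libraries, and PECAM1 (CD31) was at 0.0198 to 0.106 FPKM in IEC12. KDR, a VEGF receptor that is also known from mesodermal progenitors, went the other way in IEC2, at 2.42 to 3.99 FPKM against 1.31 to 1.46 in AOC, and was at no more than 0.302 FPKM in IEC4 and 0.0374 FPKM in IEC12. The IEC libraries labelled as induced endothelial cells thus had CDH5 at 0 and PECAM1 at no more than 0.554 FPKM, with KDR in IEC2 as an exception among the markers, and they are named below by their stage. Of 10 epithelial and trophoblast markers 9 were found, with sums of 111.0 to 146.6 in IEC2, 537.8 to 1501 in IEC4, 50.4 to 104.4 in IEC12 and 4.12 to 5.88 in AOC. IEC4 replicate C had the highest sum, with CDH1 at 42.8 FPKM against 7.51 and 6.54 in IEC4 replicates A and B, and CDX2 was listed at 0 throughout.

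**Figure D1:**
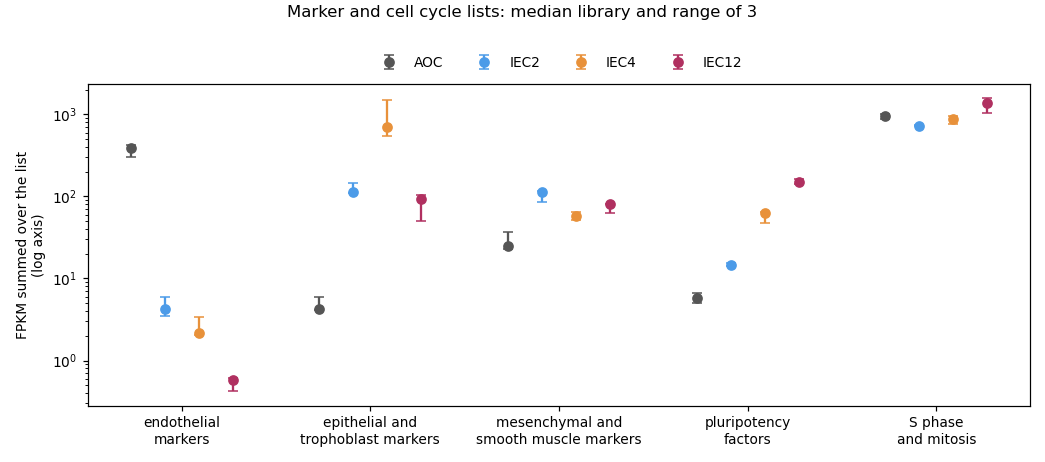
FPKM summed over 5 gene lists (log axis) in AOC, IEC2, IEC4 and IEC12, with the point at the median library and bars from the lowest to the highest of 3 libraries. Endothelial markers reached 298.3 to 423.5 in AOC and 0.425 to 0.609 in IEC12, and epithelial and trophoblast markers were highest in IEC4.

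Across the 4 groups, DNMT1 was the highest member in every library. TET1, DNMT3A and DNMT3B formed the middle range in IEC4 and IEC12 and were at or below 0.485 FPKM in AOC. In IEC4 the order by mean FPKM was DNMT1, TET1, DNMT3A, DNMT3B and UHRF1, where TET1 overlapped DNMT3A and DNMT3A overlapped DNMT3B. In IEC12 it was DNMT1, TET1, DNMT3B, DNMT3A and UHRF1, and again TET1 overlapped DNMT3B and DNMT3B overlapped DNMT3A. IEC2 had the order DNMT1, DNMT3A, TET1, UHRF1 and DNMT3B, with overlaps between DNMT3A and TET1 and between UHRF1 and DNMT3B. In AOC the order was DNMT1, UHRF1, DNMT3A, TET1 and DNMT3B, with no overlap between any neighbours among these 5. The 7 members together summed to 11.5 to 15.2 FPKM in IEC2, 28.8 to 31.6 in IEC4, 24.9 to 30.2 in IEC12 and 12.6 to 14.7 in AOC.

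**Figure D2:**
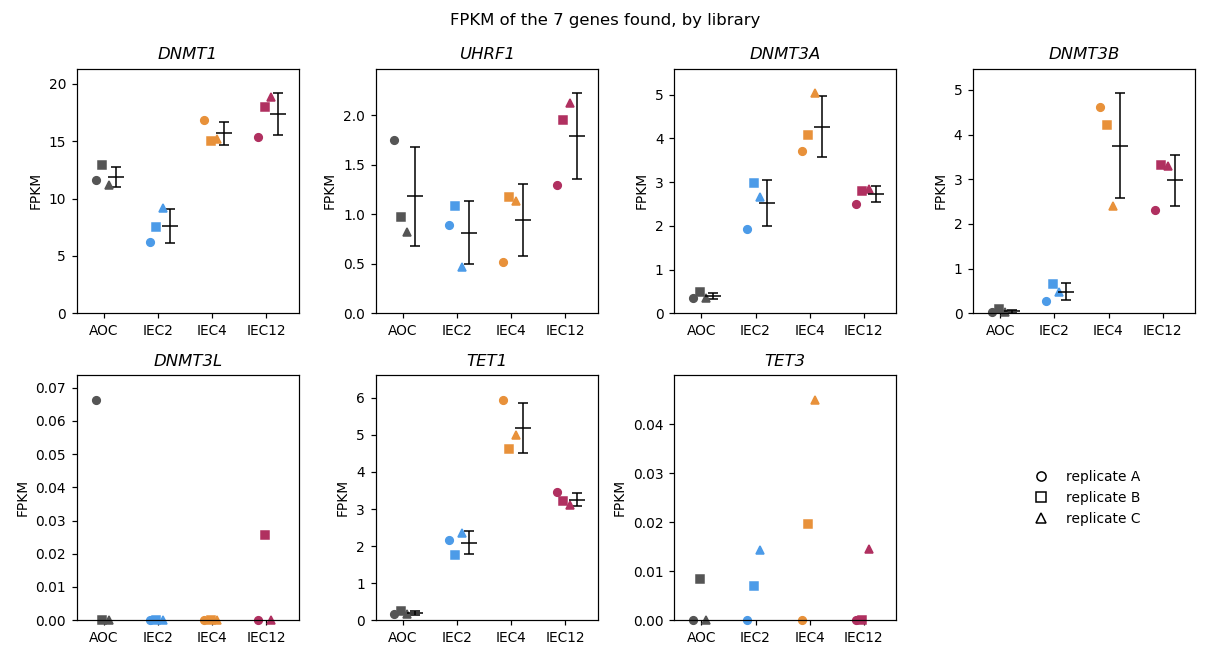
FPKM of each of the 7 members found (own linear axis from 0) in AOC, IEC2, IEC4 and IEC12. Each point is a library, the marker shape gives its replicate letter, and the black line and bars are the mean and SD of 3 libraries, left out for DNMT3L and TET3, most of whose libraries were listed at or near 0; DNMT3A, DNMT3B and TET1 were lowest in AOC and had their highest means in IEC4.

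DNMT1, the maintenance methyltransferase (ENSSSCG00000013659, placed by the RefSeq gene of that symbol on chromosome 2 from 68981564 to 69040364 in Sscrofa11.1), was at 6.18, 7.48 and 9.20 FPKM in IEC2 replicates A, B and C. It was at 16.8, 15.1 and 15.2 FPKM in IEC4, at 15.4, 17.95 and 18.9 FPKM in IEC12 and at 11.6, 12.9 and 11.2 FPKM in AOC. The IEC2 libraries lay below all others, the AOC libraries lay between IEC2 and the later stages, and IEC4 and IEC12 overlapped. These values stood on 1562 to 5314 fragments per library.

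UHRF1, which reads hemimethylated DNA and recruits DNMT1 (ENSSSCG00000013517, chromosome 2 from 73898061 to 73937727), was at 0.893, 1.09 and 0.462 FPKM in IEC2. The values were 0.518, 1.17 and 1.13 FPKM in IEC4, 1.30, 1.95 and 2.12 FPKM in IEC12 and 1.75, 0.969 and 0.821 FPKM in AOC. All 3 IEC12 libraries were above all IEC2 and IEC4 libraries, and AOC overlapped every stage. UHRF1 rested on 65 to 297 fragments per library.

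DNMT3A, a de novo methyltransferase (ENSSSCG00000029413, chromosome 3 from 113501972 to 113609148), was at 1.94, 2.98 and 2.66 FPKM in IEC2. It was at 3.71, 4.07 and 5.04 FPKM in IEC4, at 2.51, 2.80 and 2.85 FPKM in IEC12 and at 0.357, 0.485 and 0.354 FPKM in AOC. IEC4 did not overlap IEC2 or IEC12, which overlapped each other, and AOC was below all of them on 41 to 57 fragments.

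DNMT3B, the other de novo methyltransferase (ENSSSCG00000007252, chromosome 17 from 36345715 to 36386076), was at 0.285, 0.664 and 0.486 FPKM in IEC2. The values were 4.63, 4.22 and 2.41 FPKM in IEC4, 2.31, 3.32 and 3.30 FPKM in IEC12 and 0.0235, 0.0843 and 0.0380 FPKM in AOC. IEC2 was thus below both later stages and above AOC in every library, and the lowest IEC4 value was in replicate C, the library with the highest epithelial markers. The counts behind DNMT3B were 6 to 22 fragments in AOC, 80 to 205 in IEC2 and 697 to 1622 in the later stages.

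TET1, which oxidises 5-methylcytosine (ENSSSCG00000010241, chromosome 14 from 71675671 to 71812732), was at 2.17, 1.76 and 2.34 FPKM in IEC2. It was at 5.94, 4.63 and 4.99 FPKM in IEC4, at 3.45, 3.21 and 3.10 FPKM in IEC12 and at 0.157, 0.257 and 0.159 FPKM in AOC. No 2 groups overlapped, and the order was AOC, IEC2, IEC12 and IEC4 from low to high. In AOC the values stood on 24 to 40 fragments.

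DNMT3L, the cofactor of DNMT3A and DNMT3B (ENSSSCG00000028741, chromosome 13 from 207119025 to 207141990), was listed at 0.0663 FPKM in AOC replicate A and 0.0257 FPKM in IEC12 replicate B, which are 2 fragments and 1 fragment, and at 0 in the other 10 libraries. Counts of 0 allow up to 3 fragments, or 0.0667 to 0.09725 FPKM over the libraries at 0. TET3 (ENSSSCG00000008292, chromosome 3 from 68918896 to 69020406) had at most 6 fragments in a library, at 0.0450 FPKM in IEC4 replicate C, and was listed at 0 in 6 of the 12 libraries. APEX1, an endonuclease of base excision repair that most cells are known to express, was listed at no more than 0.0366 FPKM in every library, so a listed value near 0 was not read as absence of a transcript. DNMT3L and TET3 did not reach the filter of 1 FPKM in 3 libraries and were not tested.

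Differences between groups were tested with limma on log2(FPKM + 1), where the added 1 shrinks the fold change of genes at low FPKM, for genes that reached 1 FPKM in at least 3 libraries. The filter left 10542 genes in the fit of the 9 IEC libraries and 11053 in the fit of all 12, and 5 of the 7 members found passed it in both. Where a gene passed only through the groups in which it is high, its call is not independent of the filter. This held for DNMT3B, which was under 1 FPKM in every IEC2 and AOC library. It also held for DNMT3A and TET1 in the comparisons with AOC, where both were under 1 FPKM in every AOC library. A gene was called at a Benjamini-Hochberg adjusted p-value under 0.05 over all genes tested. In bulk RNA, fewer cells of a type and less RNA per cell cannot be told apart.

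From IEC2 to IEC4, 4 of the 5 members tested were called higher and 0 lower, where 24.8% of all tested genes were called higher and 12.5% lower. DNMT3B rose most, with a mean FPKM 7.84-fold higher in IEC4 and a log2 fold change of 1.66 (SE 0.23, adjusted p = 0.000537). It passed the filter only through IEC4 and IEC12, where it is high, and was also called with no filter. TET1 rose 2.48-fold (log2 fold change 0.9997, SE 0.17, adjusted p = 0.00151), and DNMT1 rose 2.06-fold (0.97, SE 0.17, adjusted p = 0.00171). DNMT3A rose 1.69-fold (0.58, SE 0.18, adjusted p = 0.0323). The DNMT3A call was the weakest of these, since it held in 9 of 17 alternative settings. It was lost without IEC2 replicate A or C, IEC4 replicate B or C or IEC12 replicate B, with equal totals and with the IEC2 and IEC4 libraries alone, at adjusted p-values of 0.0513 to 0.0991. UHRF1 differed by 0.09 (95% interval -0.40 to 0.59, adjusted p = 0.767).

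The median log2 fold change was 0.97 over the 5 members and 0.20 over all tested genes in this comparison. With median-of-ratios scaling the median of all genes was -0.01, the calls were 1867 higher and 1899 lower in place of 2614 and 1318, and DNMT3B, TET1 (0.80) and DNMT1 (0.74) were still called, whereas DNMT3A was not (0.39, adjusted p = 0.0999). Markers of other cell types moved with this comparison as well: of the 7 epithelial and trophoblast markers tested 6 were called higher in IEC4 and 1 lower, and their part in the members' rise was not tested.

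From IEC4 to IEC12, 1 of 5 members was called lower and 0 higher, where 26.9% of all tested genes were called lower and 17.3% higher. TET1 fell 1.60-fold in mean FPKM (log2 fold change -0.54, SE 0.17, adjusted p = 0.0272). The call was lost without IEC4 replicate A (adjusted p = 0.0893), without IEC12 replicate B (0.0845), without IEC12 replicate C (0.0665) and with median-of-ratios scaling (0.160). DNMT3A was 1.57-fold lower in IEC12 without overlap of the libraries, just outside the call limit (-0.50, 95% interval -0.91 to -0.08, adjusted p = 0.0520). UHRF1 was 1.90-fold higher, also without overlap and not called (0.53, 95% interval 0.03 to 1.03, adjusted p = 0.0772). It was called in 1 of 17 alternative settings, median-of-ratios scaling (limma adjusted p = 0.0295), in which TET1 was not. DNMT3B (-0.23, adjusted p = 0.433) and DNMT1 (0.14, adjusted p = 0.529) had overlapping libraries. Of the 7 epithelial and trophoblast markers tested 5 were called lower in IEC12 and 1 higher. The lower calls include CDH1, KRT7 and KRT18, which passed the filter only through the IEC4 libraries. The part of the markers in the members' values was not tested. The members' median was -0.23 and that of all tested genes -0.15. The calls over all genes were 1825 higher and 2835 lower, which became 2496 and 2283 with median-of-ratios scaling and 1220 and 3696 with equal totals.

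Over the whole interval from IEC2 to IEC12, 4 of 5 members were called higher and 0 lower, where 24.2% of all tested genes were called higher and 19.3% lower. DNMT3B rose 6.22-fold (log2 fold change 1.42, SE 0.23, adjusted p = 0.000987) and DNMT1 rose 2.28-fold (1.10, SE 0.17, adjusted p = 0.000625), and both calls held in all 17 alternative settings. UHRF1 (2.197-fold, 0.62, adjusted p = 0.0447) and TET1 (1.55-fold, 0.46, adjusted p = 0.0478) were called close to the limit. Their calls held in 6 and 4 of the 17 settings, and both were lost without IEC2 replicate A, B or C, IEC4 replicate B or C or IEC12 replicate B or C, which left 2 of 5 members called. Without IEC12 replicate A the TET1 call was lost and 3 were left. The TET1 call was also lost with the replicate letter as a block (adjusted p = 0.0581). DNMT3A differed by 0.09 (95% interval -0.32 to 0.50, adjusted p = 0.727). The members' median was 0.62 and that of all tested genes 0.03, and with equal totals the calls over all genes turned from 2556 higher and 2036 lower to 1730 and 2849.

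**Figure D3:**
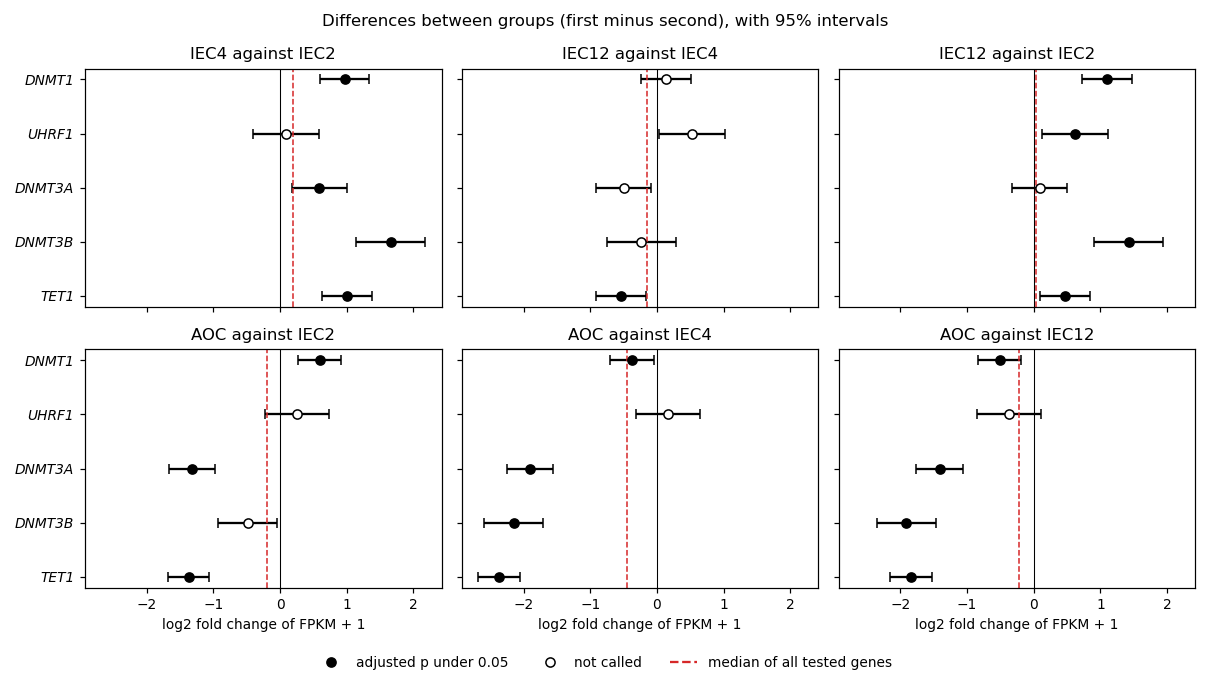
Log2 fold changes of FPKM + 1 (first group minus second) of 5 members in the 6 comparisons, with 95% intervals from limma. Filled points had an adjusted p under 0.05 and the dashed red line is the median of all tested genes; DNMT3B lay at 1.66 in IEC4 against IEC2 and TET1 at -2.37 in AOC against IEC4.

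All AOC libraries were below all 9 IEC libraries in DNMT3A, DNMT3B and TET1. How many of all genes were separated in this way was not computed, so the gap is not read as particular to the members. Mean DNMT3A in AOC was 6.33-fold below IEC2, 10.7-fold below IEC4 and 6.82-fold below IEC12, and mean TET1 was 10.95-fold, 27.2-fold and 17.0-fold below. For DNMT3B the ratios were 9.84-fold, 77.2-fold and 61.2-fold, resting in AOC on the few fragments given above. DNMT3A, DNMT3B and TET1 passed the filter only through IEC libraries, where they are higher. The 3 comparisons share the AOC libraries, so they are not independent of each other. Cell type markers differed in all 3 as well. Of the 10 endothelial markers that passed the filter with AOC, 1 (KDR) also passed it in the IEC libraries alone, so the others entered through the AOC libraries where they are high, and only their sums above are given. Of the 7 epithelial and trophoblast markers tested, 1 was called higher in AOC (GATA3, at a mean of 0.706 against 0.0297 FPKM) and 3 lower against IEC2, 0 higher and 7 lower against IEC4, and 0 higher and 4 lower against IEC12. Of the markers lower against IEC4, CDH1, KRT7 and KRT18 passed the filter through the IEC4 libraries where they are high. The part of cell type markers in the members' differences was not tested.

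Against IEC2, 1 member was called higher in AOC and 2 lower, where 26.7% of all tested genes were called higher and 37.1% lower. TET1 (log2 fold change -1.37, SE 0.14, adjusted p = 4.85e-06) and DNMT3A (-1.32, SE 0.16, adjusted p = 1.67e-05) were lower in AOC, and DNMT1 was 1.56-fold higher (0.59, SE 0.15, adjusted p = 0.00400). The DNMT1 call was lost with equal totals (0.31, adjusted p = 0.175). DNMT3B had no overlap of libraries but was just outside the limit on the log2(FPKM + 1) scale (-0.49, SE 0.20, adjusted p = 0.0508). With limma-voom on the recovered fragments, added after the data were seen, its log2 fold change was -3.36 (SE 0.78, adjusted p = 0.00205), and it was called in 9 of 19 settings in all.

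Against IEC4, 4 members were called lower in AOC and 0 higher, where 47.0% of all tested genes were called lower and 22.1% higher. TET1 (-2.37, adjusted p = 6.29e-08), DNMT3B (-2.15, adjusted p = 2.23e-06) and DNMT3A (-1.91, adjusted p = 8.82e-07) were called lower, each in all 20 alternative settings. DNMT1 was 1.32-fold lower (-0.37, adjusted p = 0.0407), a call that held in 11 of 20 settings. It turned to 0.12 (adjusted p = 0.436) with median-of-ratios scaling and was lost with the replicate block (adjusted p = 0.0559). Leaving out AOC replicate A or C, IEC2 replicate B, any IEC4 replicate or IEC12 replicate B also ended it, with adjusted p-values of 0.0521 to 0.119.

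Against IEC12, 4 members were called lower in AOC and 0 higher, where 36.2% of all tested genes were called lower and 22.4% higher. DNMT3B (-1.91, adjusted p = 6.74e-06), TET1 (-1.84, adjusted p = 5.44e-07) and DNMT3A (-1.41, adjusted p = 1.19e-05) had the largest differences among the members. DNMT1 was 1.46-fold lower (-0.51, adjusted p = 0.0111), and was not called with median-of-ratios scaling (-0.25, adjusted p = 0.116). UHRF1 was not called in any of the 3 comparisons, with differences of 0.26 against IEC2, 0.16 against IEC4 and -0.37 against IEC12 and adjusted p-values of 0.325, 0.520 and 0.172.

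The median of all tested genes was -0.20 against IEC2, -0.45 against IEC4 and -0.21 against IEC12, beside medians of -0.49, -1.91 and -1.41 over the 5 members. With median-of-ratios scaling those medians of all genes were -0.01, -0.02 and -0.01, and the numbers of genes called higher and lower in AOC changed from 2954 and 4096 to 3603 and 3474 against IEC2 (2534 and 5476 with equal totals), from 2441 and 5198 to 3634 and 3533 against IEC4, and from 2472 and 3997 to 3255 and 3117 against IEC12. DNMT3A, DNMT3B and TET1 stayed below each stage under that scaling, with log2 fold changes between -2.10 and -0.46.

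The study's limits for differential expression were p and q both under 0.001 together with a log2 fold change beyond 3 in size. The study applied them to piPSCs against AOC, a comparison not made here. They were passed by 0 of the 5 members in any comparison on the log2(FPKM + 1) scale. TET1, DNMT3A, DNMT3B and UHRF1 were at no more than 5.94 FPKM in any library. On that scale these genes could not reach the fold change limit, even from 0. Of all tested genes, 1.18% passed in IEC4 against IEC2, 0.939% in IEC12 against IEC4, 1.22% in IEC12 against IEC2, 5.47% in AOC against IEC2, 5.17% in AOC against IEC4 and 4.41% in AOC against IEC12. On the recovered fragments, where no constant is added to FPKM, DNMT3B passed in IEC4 against IEC2 (log2 fold change 3.002, SE 0.43), as did 2.59% of all tested genes. TET1 passed there in all 3 comparisons with AOC, DNMT3B against IEC4 and IEC12, and DNMT3A against IEC4, with 15.2%, 15.7% and 13.0% of all tested genes passing against IEC2, IEC4 and IEC12.

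Ratios within a library do not depend on its scaling, so the balance between members was compared as well. The ratio of DNMT3A to DNMT3B had a geometric mean of 5.50 in IEC2 (4.49 to 6.80 over the libraries), 1.17 in IEC4 (0.801 to 2.09), 0.925 in IEC12 (0.843 to 1.09) and 9.34 in AOC (5.76 to 15.2). Every AOC and IEC2 library was above every IEC4 and IEC12 library. The AOC ratios rested on 6 to 22 DNMT3B fragments per library, and AOC and IEC2 overlapped. The mean log2 ratio fell by 2.23 from IEC2 to IEC4, with an exact permutation p of 0.1 (two-sided, the smallest that 3 against 3 libraries allow) and an adjusted p of 0.225 over 18 tests of ratios. IEC4 and IEC12 overlapped (exact permutation p = 0.7). The IEC4 mean rested on replicate C, whose ratio was 2.09, and was -0.19 on the log2 scale without it against 0.23 with it.

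The ratio of TET1 to DNMT3A, a measure added after the data were seen, was 0.836 in IEC2 (0.590 to 1.123), 1.22 in IEC4 (0.990 to 1.60), 1.20 in IEC12 (1.09 to 1.37) and 0.471 in AOC (0.441 to 0.529). AOC did not overlap any stage (exact permutation p = 0.1 for each, adjusted p = 0.225), and the 3 stages overlapped each other. The ratio of DNMT1 to UHRF1 was 9.83 in IEC2, 17.8 in IEC4, 9.91 in IEC12 and 10.6 in AOC. It ranged from 6.64 to 32.5 over all libraries, and only IEC12 and IEC4 did not overlap among the 6 pairs of groups (exact permutation p = 0.1, adjusted p = 0.225).

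**Figure D4:**
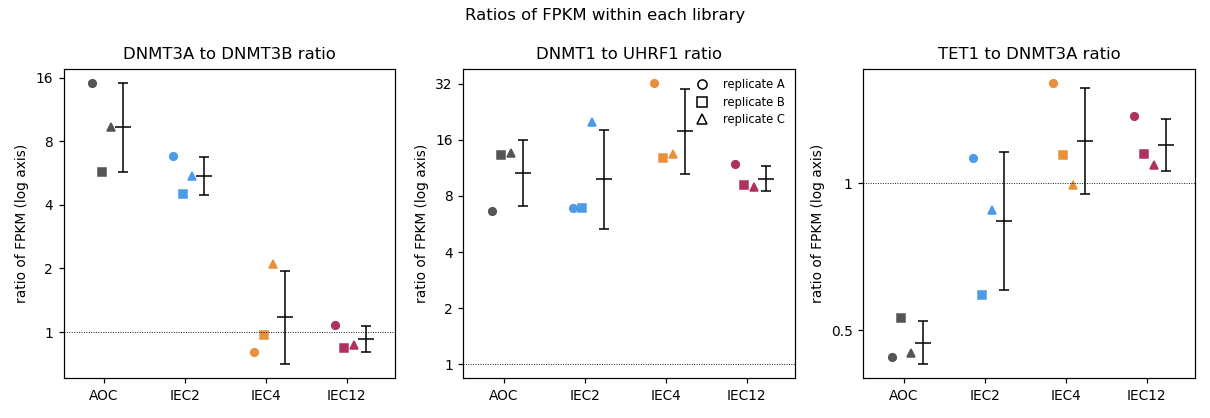
Ratios of FPKM within each library (log axis, base 2) for DNMT3A to DNMT3B, DNMT1 to UHRF1 and TET1 to DNMT3A. Each point is a library, the black line and bars are the geometric mean and 1 SD of the log2 ratio over 3 libraries, and the dotted line marks equal FPKM; DNMT3A to DNMT3B was 4.49 or more in AOC and IEC2 and 2.09 or less in IEC4 and IEC12.

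Over the 12 libraries, Pearson's r of log2(FPKM + 1) was 0.96 between DNMT3A and TET1, 0.88 between DNMT3B and TET1, 0.80 between DNMT3A and DNMT3B and 0.72 between DNMT1 and DNMT3B. UHRF1 had r between -0.05 and 0.43 with the other 4. The points are 4 groups of 3 libraries, so r also carries the differences between groups given above. The genes whose pattern was most like each member's, by the same measure among all symbol genes tested in 12 libraries, were SLC1A1, ZMYM2 and GTF3C4 for DNMT3A (r 0.99 each), MAP2, FBXL17 and TCAIM for TET1 (0.99 each) and DDIT4L, THNSL1 and NEK4 for DNMT3B (0.98 each). LMCD1, CUL1 and SRSF5 were most like DNMT1 (0.98 to 0.99), and ZDHHC23, SLC2A6 and PACRGL most like UHRF1 (0.84 to 0.88).

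Genes that help DNMT1 keep methylation were measured through a list of 11 maintenance partners, of which 9 were found and 8 tested. In IEC4 against IEC2, where DNMT1 rose, limma called 0 of 8 in either direction, 1 of them had an unadjusted p under 0.05, and limma-voom also called 0. Their median log2 fold change was 0.01 (-0.17 with median-of-ratios scaling), where that of all tested genes was 0.20. In IEC12 against IEC4, 3 were called higher and 2 lower. CDCA7, which brings the remodeler HELLS to chromatin, rose from a mean of 12.4 to 29.9 FPKM (log2 fold change 1.21, adjusted p = 0.000103). HELLS rose from 7.03 to 14.5 FPKM (0.93, adjusted p = 0.00331), and the UHRF1 paralogue UHRF2 rose from 5.73 to 10.7 FPKM (0.77, adjusted p = 0.0108). The DNA ligase LIG1 fell from 11.9 to 4.25 FPKM (-1.58, adjusted p = 0.0361), with 0.771 FPKM in IEC12 replicate A against 3.86 and 8.12 in replicates B and C. In AOC, CDCA7 was at 2.86 FPKM, 4.17-fold below IEC2 and 10.4-fold below IEC12, and TRIM28, a corepressor that keeps methylation at imprinted loci, was at 10.3 FPKM against 21.7 in IEC2, 31.4 in IEC4 and 27.9 in IEC12, with all these differences called. The list had 1 gene higher and 4 lower in AOC against IEC2, 1 and 3 against IEC4, and 0 and 2 against IEC12. Of all tested genes, 26.7% were called higher and 37.1% lower in AOC against IEC2. The shares were 22.1% and 47.0% against IEC4, and 22.4% and 36.2% against IEC12. From IEC2 to IEC4 they were 24.8% and 12.5%, from IEC4 to IEC12 17.3% and 26.9%, and from IEC2 to IEC12 24.2% and 19.3%. The counts of each list below stand beside these same shares.

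The S phase and mitosis list was followed beside DNMT1 and UHRF1, whose levels are known to follow cell division. Of 24 genes 18 were found and 17 tested, and their summed FPKM was 712.8 to 741.3 in IEC2, 758.1 to 953.5 in IEC4, 1048 to 1561 in IEC12 and 880.0 to 1008 in AOC. In IEC4 against IEC2, where DNMT1 rose, 4 were called higher and 3 lower, with a median of 0.13 that turned to -0.12 with median-of-ratios scaling. TYMS, which makes thymidylate for replication, rose 2.99-fold (log2 fold change 1.57, adjusted p = 4.14e-05) and the helicase subunit MCM7 rose 3.10-fold (1.55, adjusted p = 0.00467). The mitotic kinase genes AURKB (-1.11, adjusted p = 0.00145) and CDK1 (-1.02, adjusted p = 0.00234) fell. In IEC12 against IEC4, 9 were called higher and 1 lower. CCNB1 (1.81, adjusted p = 5.56e-06) and CDK1 (1.64, adjusted p = 0.000179) were among those that rose. CDT1 (-1.01, adjusted p = 0.0387) was the one that fell. It was at 0.203 FPKM in IEC12 replicate A against 1.63 and 1.765 in replicates B and C. With equal totals the list had 4 higher and 1 lower. In IEC12 against IEC2, 10 were called higher and 0 lower, with a median of 0.70. AOC had 7 called higher and 1 lower against IEC2 and 6 higher and 2 lower against IEC4, which became 12 and 0 and then 10 and 1 with median-of-ratios scaling and 4 and 3 and then 5 and 4 with equal totals. Against IEC12 the direction was the other way, with 1 higher and 6 lower, a split that became 5 and 4 with median-of-ratios scaling. The part of cell division in the values of DNMT1 and UHRF1 was not tested.

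Chromatin factors that guide or oppose DNMT3A and DNMT3B, such as the histone H3 lysine 36 methyltransferases SETD2, NSD1 and NSD2, made a list of 10 genes, of which 9 were found and tested. NSD1 rose from 1.12 FPKM in IEC2 to 3.34 FPKM in IEC4 (log2 fold change 1.04, adjusted p = 0.00201) and NSD2 rose from 1.09 to 2.34 FPKM (0.68, adjusted p = 0.0303), with 0 genes lower and a list median of 0.21. In IEC12 against IEC4, 0 were called higher and 3 lower. These were MPHOSPH8, a subunit of the HUSH silencing complex (29.4 to 15.1 FPKM), the H3 lysine 9 methyltransferase EHMT2 (1.32 to 0.280 FPKM) and the demethylase KDM1B (1.26 to 0.560 FPKM). MPHOSPH8 was at 8.92 FPKM in IEC12 replicate A against 16.3 and 19.97 in replicates B and C. AOC had 1 gene higher and 5 lower against IEC2, 0 and 5 against IEC4, and 0 and 3 against IEC12. Lower calls in AOC made up 37.1%, 47.0% and 36.2% of all tested genes in these comparisons. SETDB1, which writes H3 lysine 9 methylation at silenced repeats, was called lower in AOC each time, at 0.937 FPKM against 3.25, 3.61 and 2.94 FPKM in IEC2, IEC4 and IEC12.

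TET partners and base excision repair genes numbered 20, with 19 found, 16 tested between stages and 17 in the fit with AOC. In IEC4 against IEC2, 5 were called higher and 2 lower. CXXC5, a CXXC zinc finger protein known to act with TET2, rose from 2.11 to 16.4 FPKM (log2 fold change 2.48, adjusted p = 0.00290), and GADD45B rose from 3.63 to 17.1 FPKM (1.91, adjusted p = 0.00277). TDG, the glycosylase that removes oxidised methylcytosine, fell from 58.1 to 41.9 FPKM (-0.46, adjusted p = 0.0427), while TET1 rose in the same comparison. In IEC12 against IEC4, 1 was called higher and 8 lower (list median -0.56), including the glycosylase NEIL2 (12.7 to 3.53 FPKM, -1.73, adjusted p = 0.0166) and the scaffold XRCC1 (3.86 to 0.883 FPKM, -1.41, adjusted p = 0.00479). NEIL2 was at 1.04 FPKM in IEC12 replicate A against 3.38 and 6.16 in replicates B and C. XRCC1 was at 0.341 FPKM in IEC12 replicate A against 0.862 and 1.45 in B and C. In AOC, TDG was at 14.1 FPKM, 4.13-fold below IEC2 (log2 fold change -1.97, adjusted p = 2.45e-07) and 2.94-fold below IEC12 (-1.48, adjusted p = 3.56e-06). GADD45B was at 71.3 FPKM in AOC, 19.7-fold above IEC2 and 4.98-fold above IEC12, and NEIL2 was listed at 0.0410, 0 and 0 FPKM in AOC. The list had 4 higher and 7 lower in AOC against IEC2, 3 and 9 against IEC4, and 3 and 5 against IEC12, the last becoming 6 and 4 with median-of-ratios scaling. Lower calls in AOC made up 37.1%, 47.0% and 36.2% of all tested genes in the main fits.

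The methyl donor cycle makes S-adenosylmethionine, the substrate of the DNMT enzymes. Of its 15 genes 14 were found and 11 tested, and 4 were called higher and 0 lower in IEC4 against IEC2, against 1 higher and 0 lower with median-of-ratios scaling. MTHFD2, a mitochondrial folate enzyme, rose from 182.7 to 325.3 FPKM (log2 fold change 0.79, adjusted p = 0.0115). In IEC12 against IEC4, 0 were called higher and 4 lower, with MTHFD2 at 77.2 FPKM (-2.04, adjusted p = 8.84e-05), SHMT2 from 304.4 to 107 FPKM (-1.60, adjusted p = 0.00409) and the methionine synthase MTR from 4.49 to 1.15 FPKM (-1.31, adjusted p = 0.00564). SHMT2 was at 54.2 FPKM in IEC12 replicate A against 118.2 and 148.5 in replicates B and C. AOC had 1 gene higher and 9 lower against IEC2, 1 and 10 against IEC4 and 0 and 4 against IEC12, with list medians of -0.85, -1.39 and -0.32. Lower calls in AOC made up 37.1%, 47.0% and 36.2% of all tested genes. AHCY, which clears S-adenosylhomocysteine, was at 8.66 FPKM in AOC, 3.12-fold below IEC2 and 2.39-fold below IEC12.

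Proteins that read methylated CpG sites carry the mark's message to chromatin. The list of methyl-CpG readers was drawn from the families of such proteins, with MBD3, MBD5 and MBD6 among them. Membership does not show that a protein binds the mark. Of 9 genes 8 were found and 6 tested, and 0 were called higher and 1 lower in each of the 3 comparisons between stages. MBD2 fell from 2.55 FPKM in IEC2 to 0.760 FPKM in IEC4 (log2 fold change -1.01, adjusted p = 0.00317), and was at 1.15 FPKM in IEC12 (-0.72 against IEC2, adjusted p = 0.0147). ZBTB38 fell from 3.52 FPKM in IEC4 to 1.67 FPKM in IEC12 (-0.76, adjusted p = 0.00558). In AOC, 1 gene of the list was called higher and 1 (MBD5) lower against IEC2, 2 and 3 against IEC4 and 2 and 1 against IEC12. Lower calls in AOC made up 37.1%, 47.0% and 36.2% of all tested genes. ZBTB33, one of those lower against IEC4 (-0.42), was at 0.06 with median-of-ratios scaling.

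**Figure D5:**
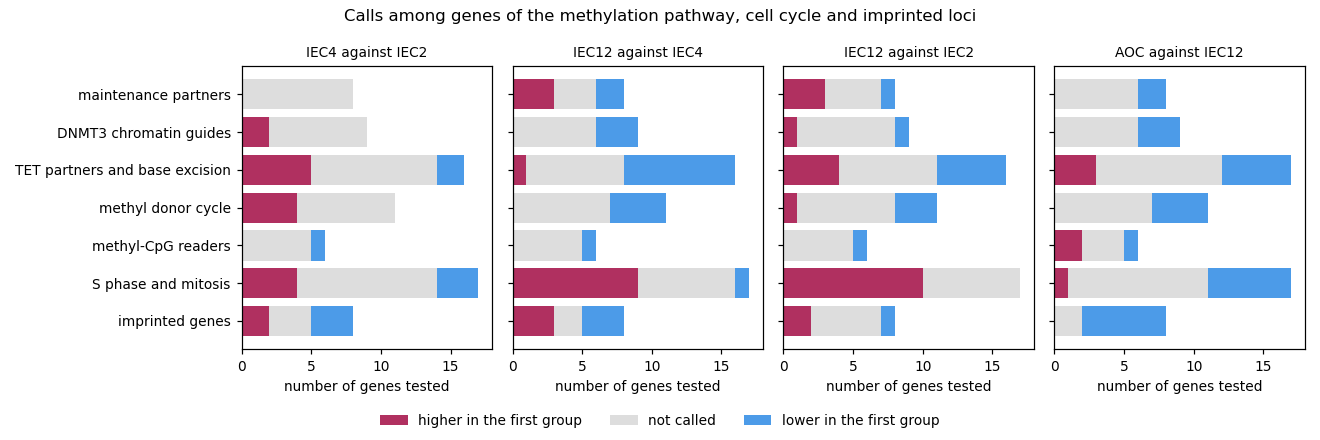
Numbers of genes called higher, not called and called lower in the first group (adjusted p under 0.05, limma) for 7 gene lists in 4 comparisons. In IEC12 against IEC2 the S phase and mitosis list had 10 genes higher and 0 lower, and in AOC against IEC12 the imprinted genes had 0 higher and 6 lower. Of all tested genes, 24.2% were called higher and 19.3% lower in the first comparison and 22.4% and 36.2% in the second.

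Genes whose expression is known to depend on DNA methylation were described last. Of 16 imprinted genes 11 were found and 8 tested, and AOC had 0 higher and 6 lower against IEC2, 1 and 6 against IEC4, and 0 and 6 against IEC12, with list medians of -1.10, -1.31 and -1.38. Lower calls in AOC made up 37.1%, 47.0% and 36.2% of all tested genes. MEST was at 0.160, 0.176 and 0.208 FPKM in AOC against a mean of 93.7 in IEC2, 58.6 in IEC4 and 10.6 in IEC12. NDN was listed at 0 in all AOC libraries and at means of 2.60, 2.55 and 8.18 FPKM in IEC2, IEC4 and IEC12. DIRAS3 rose from 21.8 to 126.9 FPKM from IEC2 to IEC4 (log2 fold change 2.50, adjusted p = 5.86e-06) and fell to 21.2 FPKM in IEC12 (-2.53, adjusted p = 7.48e-06). Between stages the list had 2 higher and 3 lower in IEC4 against IEC2, 3 and 3 in IEC12 against IEC4 and 2 and 1 in IEC12 against IEC2. Methylation itself was not measured in these libraries.

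Of 23 germline genes, which are typically silenced by promoter methylation in somatic cells, 12 were found and 2 tested. SYCP2, a meiotic chromosome axis gene, was at 0.355 to 0.852 FPKM in IEC2, 15.1 to 21.2 in IEC4, 1.45 to 2.01 in IEC12 and 24.7 to 26.9 in AOC, and it was called in all 6 comparisons, with adjusted p-values from 3.02e-09 to 0.0129. TKTL2 was lower in AOC than in every stage (adjusted p = 0.00526, 0.00789 and 0.000510 against IEC2, IEC4 and IEC12). It was at no more than 0.0695 FPKM in AOC and passed the filter only through IEC libraries, where it is high. These calls are therefore not independent of the filter. The other 10 genes of the list found were not tested.

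Of 16 pluripotency factors 7 were found and 3 were tested, and POU5F1 and SOX2 are not analysed here. LIN28A was listed at 0 in all IEC2 and AOC libraries, was at 3.01 to 5.86 FPKM in IEC4 and at no more than 0.647 FPKM in IEC12, and OTX2 rose from a mean of 13.1 FPKM in IEC2 to 48.4 in IEC4 and 149.4 in IEC12 (adjusted p = 5.26e-05 and 0.000112 for the 2 steps). KLF4 was at 1.62 FPKM in IEC2, 5.23 in IEC4, 0.286 in IEC12 and 4.79 in AOC. NANOG reached at most 1.08 FPKM, in IEC12 replicate B. The summed FPKM of the 7 factors was 14.2 to 15.5 in IEC2, 47.6 to 65.0 in IEC4, 140.9 to 162.1 in IEC12, most of it OTX2, and 5.09 to 6.66 in AOC. Their part in the members' values was not tested.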

How the data were processed

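RNA of 12 libraries (Smart-Seq2 amplified cDNA, per the labels) was sequenced on a HiSeq 2500. The submitters' processing notes name Bowtie2 2.2.3, TopHat2 2.0.12, Cufflinks 2.2.1 and the build susScr11, and the methods name Galaxy. The authors deposited 1 FPKM value per gene and library. Symbols came from a table of gene names, positions from RefSeq genes of Sscrofa11.1 with the same symbol.

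Low values were whole multiples of a step. Taking the smallest step as 1 fragment, 17457 of 17462 genes above 0 in at least 2 libraries (99.97%) came out whole, and each library held 23608396 to 35225118 fragments. Amplified reads without molecular identifiers are not independent molecules, so floors cover counting error only.

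limma 3.58.1 (R 4.3.3) was fitted to log2(FPKM + 1) with an expression-dependent prior variance (eBayes, trend = TRUE) for genes that reached 1 FPKM in 3 or more libraries, in the 9 IEC libraries for stages and in all 12 for AOC. Calls needed a Benjamini-Hochberg adjusted p under 0.05. The study's own limits were counted beside them. Ratios of FPKM were compared by two-sided exact permutation tests. Python 3.11.15, NumPy 2.4.6, pandas 2.3.3, SciPy 1.17.1 and matplotlib 3.10.9 were used.

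The members and lists were chosen with earlier results of these data known. From each list, up to 3 called genes a direction with the largest changes could be named, and not all are. Genes most like a member were the 3 with the highest r. NANOG, POU5F1, SOX2, APEX1 and the marker genes named were chosen outside this rule, after their values were seen. The share of TET1 among the TET genes was not computed, since TET2 is not analysed here. Mesenchymal and smooth muscle, blood cell and neuronal markers were measured too.

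The fit was tested on simulated data with known fold changes. Of 100 genes with a log2 change of 1, 47 were called in IEC4 against IEC2 and 65 in AOC against IEC2. With a log2 change of 2 the numbers were 87 and 93 of 100, and 5 and 6 unchanged genes were called. A member that was not called is thus not shown to be unchanged. Alternatives were a pseudocount of 0.1, no filter, only the 2 groups compared, a replicate block, median-of-ratios scaling, equal totals, a prior variance without the trend, each library left out and, added after the data were seen, limma-voom on recovered fragments.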

Additional observations from a re-analysis of the deposited data

How the results depend on the processing

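The study's limits left 0 members called in IEC4 against IEC2, IEC12 against IEC4, IEC12 against IEC2 and AOC against IEC2, IEC4 and IEC12. On the log2(FPKM + 1) scale of that count, only DNMT1 was at FPKM high enough to pass. In IEC12 against IEC4 the number of members called went from 1 to 2 with equal totals, with a prior variance without the trend and with limma-voom, where DNMT3A was added in each, and lay between 0 and 2 when a library was left out (0 without IEC4 replicate A, IEC12 replicate B or IEC12 replicate C, and 2 without IEC2 replicate A). With median-of-ratios scaling UHRF1 was called higher there in place of TET1 lower, so the number stayed at 1. In IEC12 against IEC2 the number of members called went from 4 to 2 with no filter and with equal totals. It lay between 2 and 4 when a library was left out. In the other 4 comparisons no other setting moved it beyond 3 to 4.

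Sign changes touched differences that were not called, except DNMT1 in AOC against IEC4 with median-of-ratios scaling (0.12). UHRF1 in IEC4 against IEC2 became -0.026 with median-of-ratios scaling and lay between -0.054 (without IEC2 replicate C) and 0.261 with a library left out. DNMT1 in IEC12 against IEC4 became -0.067 and DNMT3A in IEC12 against IEC2 -0.14 with equal totals, the latter between -0.038 (without IEC2 replicate A) and 0.181 with a library left out. UHRF1 in AOC against IEC4 lay between -0.015 (without AOC replicate A) and 0.281, and was -0.00397 without IEC4 replicate A. With only the AOC and IEC2 libraries, UHRF1 and DNMT3B did not pass the filter and have no value. Causes were not tested.

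With a pseudocount of 1, the mean log2 ratio of DNMT3A to DNMT3B went from 2.46 to 1.25 in IEC2 and from 3.22 to 0.41 in AOC, and that of DNMT1 to UHRF1 from 3.30 to 2.25 in IEC2, 4.15 to 3.12 in IEC4, 3.31 to 2.73 in IEC12 and 3.41 to 2.59 in AOC. The order of AOC and IEC2 in the ratio of DNMT3A to DNMT3B thus turned, with AOC the lower once the pseudocount was added. The IEC4 log2 ratio of DNMT3A to DNMT3B was -0.19 to 0.51 with a library left out.

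Same-letter libraries deviated with correlations between -0.51 and 0.25, below 0.1 for at least 1 letter in every comparison. Letters A and C had 0.25 and 0.20 in IEC12 against IEC2, and -0.37 and -0.51 in AOC against IEC12. Such values cannot show whether libraries of a letter were paired or shared a batch. The replicate block left 4, 1, 3, 3, 3 and 4 members called in the 6 comparisons, in the order of the first sentence, against 4, 1, 4, 3, 4 and 4 without it.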

Other observations

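Marker lists of other cell types that entered no comparison of the members were measured in the same libraries. Of 12 mesenchymal and smooth muscle markers 11 were found, and their summed FPKM was 85.6 to 115.8 in IEC2, 51.0 to 63.6 in IEC4, 63.1 to 81.0 in IEC12 and 23.0 to 36.5 in AOC. Most of the IEC2 sum was COL3A1, at 66.0 to 108.2 FPKM. The 8 blood cell markers were all found, with sums of 10.2 to 12.5 in IEC2, 7.21 to 11.1 in IEC4, 4.77 to 7.08 in IEC12 and 27.7 to 44.0 in AOC. Most of the AOC sum was CD34, at 18.2 to 34.1 FPKM. PTPRC was listed at 0 in all AOC libraries and was at 2.14 to 3.49 FPKM in IEC4. Of 7 neuronal markers 6 were found, with sums of 3.89 to 5.31 in IEC2, 15.9 to 16.7 in IEC4, 8.75 to 10.1 in IEC12 and 10.1 to 13.7 in AOC.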
